A study of Mus musculus with 15 samples.

Results

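The genes described here are 10 costimulatory and checkpoint molecules of T cells: the TNF-receptor family members Tnfrsf4, Tnfrsf9 and Tnfrsf18, the TNF-family ligand Cd40lg, the immunoglobulin-family receptors Cd28, Icos, Ctla4, Pdcd1 and Lag3, and the PD-1 ligand Cd274. They were chosen by name, as the rows whose annotated symbol is exactly 1 of these names, and they are 10 of the 19938 genes measured. Each of the 10 had 1 probe set.

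A T cell that binds antigen through its receptor needs additional signals to respond fully. CD28 gives the constitutive costimulatory signal when it meets CD80 or CD86, and CTLA-4 competes for the same ligands and restrains the response. Most of the other receptors appear or increase at the surface after antigen recognition: the TNF-receptor family members OX40 (Tnfrsf4), CD137 (Tnfrsf9) and GITR (Tnfrsf18) signal through TRAF adaptors, while PD-1 (Pdcd1) and LAG-3 (Lag3) inhibit signalling. In the thymus, strong antigen recognition induces several of them on thymocytes undergoing negative selection, and regulatory T cells express OX40, GITR, CTLA-4 and ICOS at high levels.

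Total RNA was taken from the whole thymus of female mice aged 5 weeks, 2 h after an intravenous dose of 0.5 µg peptide. NOD.LCMV mice received gp33 (n = 3), an epitope of the lymphocytic choriomeningitis virus glycoprotein, or a control peptide that binds the same class I molecule, Db (n = 3), and NOD.Ln82-LCMV mice received gp33 (n = 5) or the control peptide (n = 4). NOD is the non-obese diabetic strain, and the title of the series connects the study to Nfkbid, the diabetes locus Idd7 and the deletion of CD8 T cells. The labels describe neither the LCMV element that both strain names share, nor the cells in which it acts, nor the Ln82 segment, nor any batch, so a batch that followed strain cannot be told apart from strain. The 5 comparisons below share arrays with each other. Values are log2 RMA intensities, differences are differences of log2 means with their standard error (SE), and genes with a limma p under 0.05 after Benjamini-Hochberg adjustment across the 19938 genes are those described as called.

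Array medians lay between 7.59 and 7.67, and the markers of thymocytes were bright on every array, with a mean of 9 markers between 11.07 and 11.93. One control array of each strain, both called replicate 1 here, did not lie fully with its own strain. The sample titles number only the NOD.Ln82-LCMV arrays, and the NOD.LCMV arrays were numbered here in the order listed. The number 1 is therefore not a label that these arrays share. Each array was placed between the strains over genes whose strain groups were separated by more than 0.5 log2 on the other arrays, with 0 for the mean of NOD.Ln82-LCMV and 1 for the mean of NOD.LCMV. NOD.LCMV control replicate 1 lay at a median of 0.59 over 28 genes, while the other 5 NOD.LCMV arrays lay between 0.91 and 1.07. NOD.Ln82-LCMV control replicate 1 lay at a median of 0.38 over 22 genes, 8 of which were nearer to NOD.LCMV, and its best-correlated array was NOD.LCMV control replicate 2. The other 8 NOD.Ln82-LCMV arrays lay between -0.07 and 0.05. Calls of the 10 genes that change without these arrays are given with and without them.

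In NOD.LCMV thymus, 8 of the 10 genes were higher 2 h after gp33 than after the control peptide, and none was lower. The differences ran from 1.25-fold for Ctla4 to 8.53-fold for Tnfrsf9, and Cd28 and Icos did not pass the test. Among all genes, 7.29% were called higher (1453) and 12.5% lower (2490) in the same limma comparison, or 1632 higher and 1829 lower when each array was centred on its median. The median difference of the 10 genes was 0.78 log2, and that of all genes was -0.03. Every gp33 array lay above every control array for the same 8 genes, and for 10.9% of all genes. In whole tissue, fewer cells of a type and less RNA per cell cannot be told apart.

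Tnfrsf9 (probe set 10510580), the gene of CD137, which sustains the proliferation and survival of activated CD8 T cells, had the largest difference of the 10. It measured 11.58, 11.46 and 11.26 in NOD.LCMV mice given gp33, against 8.5, 8.34 and 8.18 in NOD.LCMV mice given the control peptide. All 3 gp33 arrays stood far above all 3 control arrays. The difference was 3.09 log2 (SE 0.23), or 8.53-fold (6.12 to 11.9 at 95%, limma adjusted p = 1.07e-07), and it held rank 17 among the 19938 genes ordered from the largest rise.

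Tnfrsf18 (probe set 10511290), the gene of GITR, a costimulatory receptor of activated and regulatory T cells, measured 10.64, 11.08 and 10.64 in NOD.LCMV mice given gp33, against 9.41, 9.42 and 9.38 in those given the control peptide. Again no arrays overlapped, and the difference was 1.38 log2 (SE 0.11), or 2.61-fold (2.21 to 3.08, limma adjusted p = 3.57e-07). Tnfrsf4 (probe set 10511282), the gene of OX40, which prolongs the survival of activated T cells, measured 9.51, 9.18 and 9.09 in NOD.LCMV mice given gp33, against 8.57, 8.46 and 8.48 in those given the control peptide. The gp33 arrays were all higher, by 0.76 log2 on average (SE 0.11), or 1.69-fold (1.45 to 1.98, limma adjusted p = 0.000108).

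Cd40lg (probe set 10599802), the ligand through which helper T cells activate B cells and dendritic cells, measured 7.64, 8.13 and 7.43 in the gp33 group, against 7.07, 6.94 and 6.77 in the control group. The groups did not overlap, and gp33 replicate 2 was the highest by a wide margin. The difference was 0.81 log2 (SE 0.12), or 1.75-fold (1.46 to 2.1, limma adjusted p = 0.000221).

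Cd274 (probe set 10462390), the gene of PD-L1, which engages PD-1 and is carried by antigen-presenting cells, epithelium and activated T cells, had the second largest difference. It measured 11.76, 11.73 and 11.6 in NOD.LCMV mice given gp33, against 10.24, 9.98 and 9.9 in those given the control peptide. The groups were separate, and the difference of 1.66 log2 (SE 0.08), or 3.15-fold (2.78 to 3.57), had the smallest adjusted p of the 10 genes (limma, 2.59e-09). Pdcd1 (probe set 10356866), which encodes the inhibitory receptor PD-1, measured 10.35, 10.87 and 10.27 in NOD.LCMV mice given gp33, against 9.12, 9.25 and 9.17 in those given the control peptide. Every gp33 array exceeded every control array, by 1.32 log2 on average (SE 0.19), or 2.49-fold (1.87 to 3.32, limma adjusted p = 0.000171).

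The promoters of Tnfrsf9, Cd274 and Tnfrsf18, the 3 genes with the largest differences, are shown for the letters of transcription factor motifs that act downstream of the antigen receptor and of TNF-family receptors. RefSeq sequences of GRCm38.p6, 300 bases each with 250 before and 50 after an annotated start, were given here for 6 of the 10 genes (Tnfrsf4, Tnfrsf9, Tnfrsf18, Ctla4, Pdcd1 and Cd274), with 2 starts for Tnfrsf9. Capitals mark every match, on either strand, to the NF-κB consensus, to the AP-1 motif TGANTCA, to TGGAAA (the NFAT core with a leading T), to the NR4A monomer motif AAAGGTCA and to the EGR motif GCGNGGGCG. All 3 genes lie on the + strand.
Tnfrsf9, chr4:150927749-150928048: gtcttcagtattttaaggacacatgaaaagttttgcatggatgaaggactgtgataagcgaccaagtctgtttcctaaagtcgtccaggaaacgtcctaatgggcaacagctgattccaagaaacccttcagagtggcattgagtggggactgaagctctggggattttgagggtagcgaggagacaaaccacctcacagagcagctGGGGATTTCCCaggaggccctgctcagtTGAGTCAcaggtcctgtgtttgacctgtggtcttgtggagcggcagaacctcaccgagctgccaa
Tnfrsf9, chr4:150919905-150920204: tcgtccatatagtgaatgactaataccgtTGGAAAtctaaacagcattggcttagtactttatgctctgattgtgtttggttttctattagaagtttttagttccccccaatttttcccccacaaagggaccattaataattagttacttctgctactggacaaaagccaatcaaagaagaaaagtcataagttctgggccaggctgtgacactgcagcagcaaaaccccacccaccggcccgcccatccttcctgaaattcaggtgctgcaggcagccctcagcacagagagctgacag
Cd274, chr19:29367188-29367487: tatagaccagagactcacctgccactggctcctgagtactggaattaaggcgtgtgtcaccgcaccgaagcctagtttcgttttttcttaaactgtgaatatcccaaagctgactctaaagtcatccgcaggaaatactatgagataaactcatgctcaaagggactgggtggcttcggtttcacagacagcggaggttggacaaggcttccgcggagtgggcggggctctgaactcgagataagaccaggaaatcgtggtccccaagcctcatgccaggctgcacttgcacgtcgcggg
Tnfrsf18, chr4:156026072-156026371: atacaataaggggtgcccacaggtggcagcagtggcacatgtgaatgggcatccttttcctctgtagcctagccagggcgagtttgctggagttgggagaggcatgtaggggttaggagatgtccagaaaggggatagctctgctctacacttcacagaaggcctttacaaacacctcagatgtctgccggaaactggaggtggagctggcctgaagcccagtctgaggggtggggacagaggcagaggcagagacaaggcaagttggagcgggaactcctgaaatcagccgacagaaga
The Tnfrsf9 window at chr4:150927749 held a pair of overlapping κB matches, from -43 to -34 and from -42 to -33 relative to the start, and an AP-1 match from -15 to -9. The κB consensus occurred in 8.46% and the AP-1 motif in 7.81% of 32851 promoters of this length. The other Tnfrsf9 window held TGGAAA from -221 to -216, a motif of 21.4% of all promoters. The NR4A motif occurred in 1.51% and the EGR motif in 5.55% of all promoters, and neither was in any of the 7 windows. The windows of Tnfrsf4 and Ctla4 each held TGGAAA on the minus strand, and those of Cd274, Tnfrsf18 and Pdcd1 held none of the 5 motifs. These matches describe letters in a window and are not measured binding sites.

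**Figure D1:**
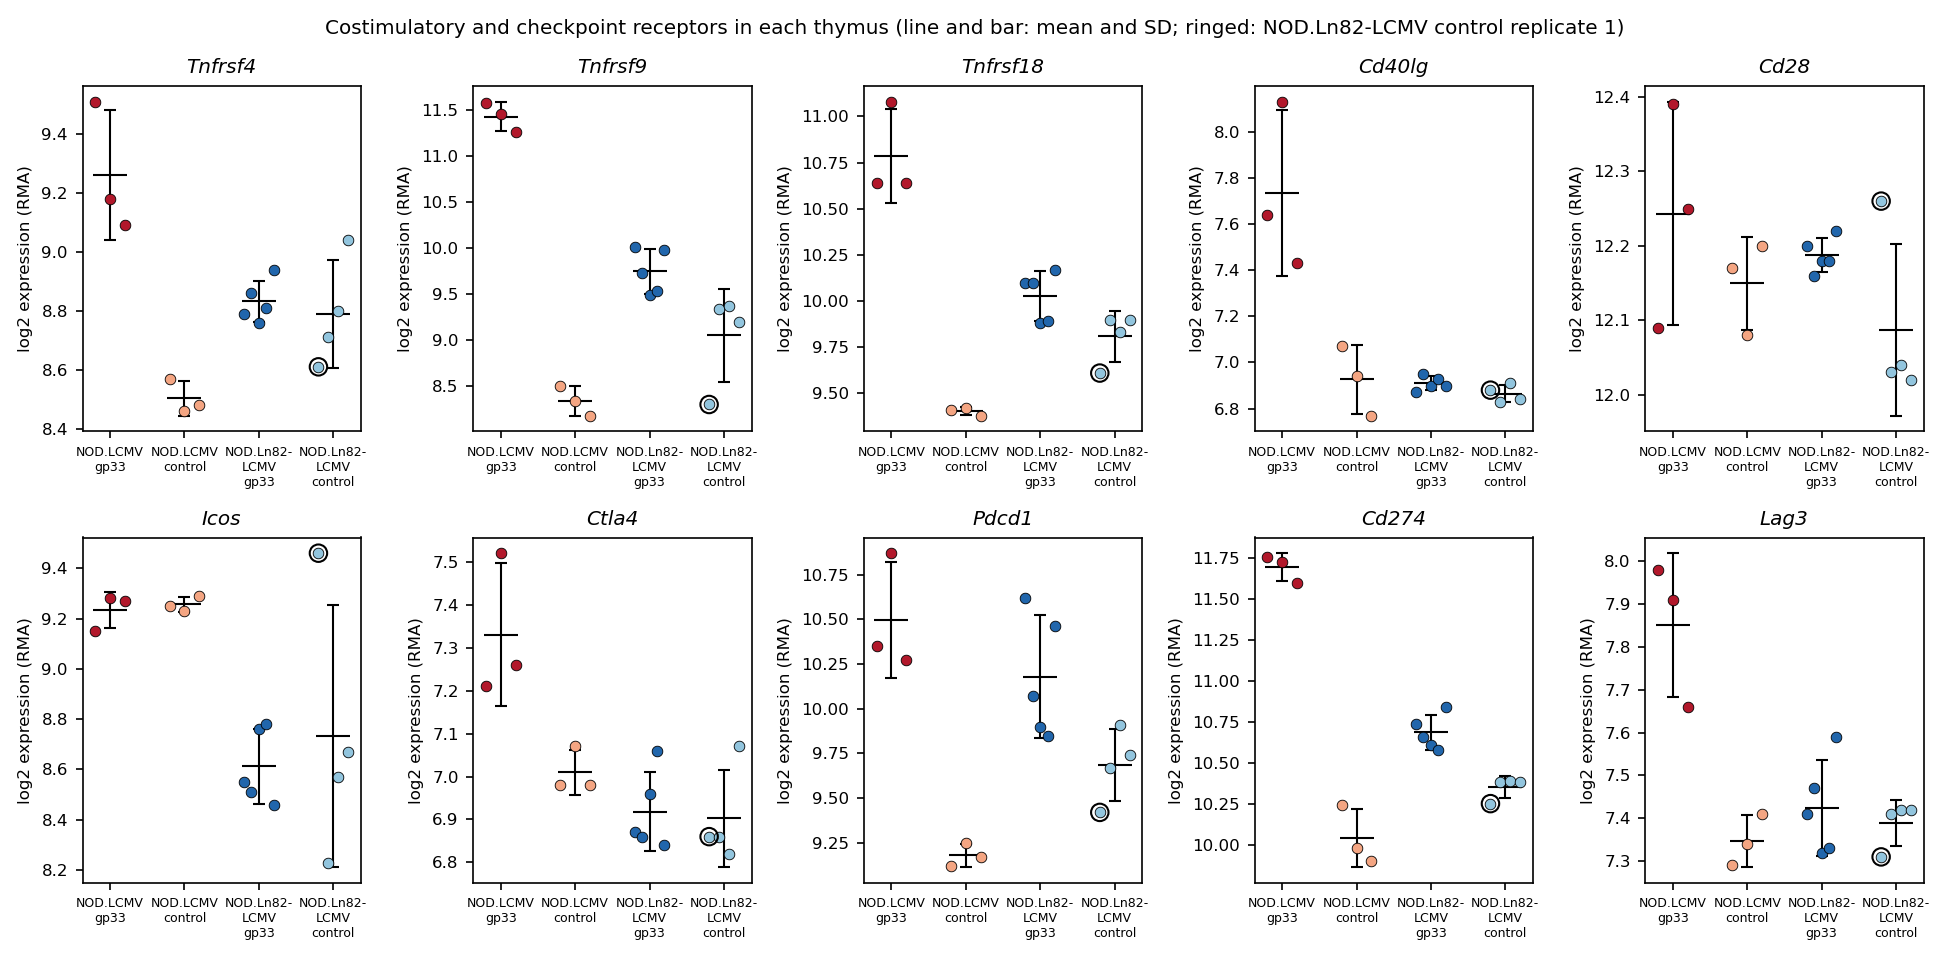
Log2 RMA expression (vertical axis, scaled separately for each gene) of the 10 genes in every thymus, with NOD.LCMV gp33, NOD.LCMV control, NOD.Ln82-LCMV gp33 and NOD.Ln82-LCMV control from left to right. Points are arrays, horizontal lines are group means, bars are the SD, and the ring marks NOD.Ln82-LCMV control replicate 1. The 3 NOD.LCMV gp33 arrays lie above all other arrays for Tnfrsf4, Tnfrsf9, Tnfrsf18, Cd40lg, Ctla4, Cd274 and Lag3 (and for 6.18% of all genes). For Icos the arrays divide by strain except for the ringed one, and the share of all genes with this division was not counted.

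Lag3 (probe set 10547906), an inhibitory receptor related to CD4 that binds class II molecules, measured 7.98, 7.91 and 7.66 after gp33, against 7.29, 7.34 and 7.41 after the control peptide. It differed by 0.5 log2 (SE 0.08), or 1.42-fold (1.26 to 1.6, limma adjusted p = 0.000361). Ctla4 (probe set 10346790) had the smallest difference that passed, with 7.21, 7.52 and 7.26 after gp33 and 6.98, 7.07 and 6.98 after the control peptide. The groups were separate, and the difference was 0.32 log2 (SE 0.08), or 1.25-fold (1.1 to 1.41, limma adjusted p = 0.0126). This call rested on gp33 replicate 2, since without it the difference was 0.22 (limma adjusted p = 0.0707), and without both control arrays numbered 1 it was 0.31 (limma adjusted p = 0.0531).

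Cd28 and Icos, which lie on both sides of Ctla4 on chromosome 1, did not pass. Cd28 (probe set 10346783) measured 12.09, 12.39 and 12.25 in NOD.LCMV mice given gp33, against 12.17, 12.08 and 12.2 in those given the control peptide. The groups overlapped, and the difference was 0.09 log2, between -0.06 and 0.25 at 95% (limma adjusted p = 0.478). Icos (probe set 10346799), whose product supports helper and regulatory T cells, measured 9.15, 9.28 and 9.27 after gp33, against 9.25, 9.23 and 9.29 after the control peptide. Here too the arrays overlapped, at a difference of -0.02 log2 (95% bounds -0.46 and 0.41, limma adjusted p = 0.972). The spread behind these bounds is pooled over all 4 groups, of which NOD.Ln82-LCMV control had the widest range for Icos.

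Markers of other cells and stages moved in the same NOD.LCMV comparison, in which 7.29% of all genes were called higher and 12.5% lower. Of 7 granulocyte markers, 5 were called higher after gp33, and the mean of the list lay between 7.76 and 8.15 after gp33 and between 7 and 7.29 after the control peptide. Of 5 mature single-positive thymocyte markers, 3 were called lower, with list means of 8.99 to 9.36 after gp33 and 9.57 to 9.71 after the control peptide. Of 9 thymocyte markers, 4 were called lower, with list means of 11.07 to 11.67 after gp33 and 11.54 to 11.8 after the control peptide, and of 7 dendritic cell markers 3 were called lower (limma). For the thymocyte markers, 1 was called lower without NOD.LCMV gp33 replicate 2, without control replicate 1 or 2 of NOD.LCMV, or without both control arrays numbered 1. Of 8 thymic epithelium markers 2 were lower, or 1 without gp33 replicate 2 or 3 or control replicate 1 or 2 of NOD.LCMV, and of 5 macrophage markers 1 was lower. Lower as well were 1 of 4 natural killer cell, 2 of 5 endothelium and 1 of 5 fibroblast markers, and none of these was higher. Their part in the differences of the 10 genes was not tested.

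In NOD.Ln82-LCMV thymus, none of the 10 genes was called between gp33 and the control peptide. At an unadjusted p under 0.05 in limma, 4 of the 10 passed, all higher after gp33, against 1190 genes or 5.97% of all genes. Called genes made up 0.00502% higher (1 gene, the early activation marker Cd69) and 0% lower. That count was 0 without both control arrays numbered 1, and also without gp33 replicate 1, 3, 4 or 5 or control replicate 2, 3 or 4 of NOD.Ln82-LCMV. It was 2 without gp33 replicate 2 or control replicate 1 of NOD.Ln82-LCMV or gp33 replicate 2 of NOD.LCMV. The median difference of the 10 was 0.07 log2, and that of all genes was 0. Every gp33 array lay above every control array for 0.667% of all genes (133), and for Tnfrsf9 and Cd274 of the 10.

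Tnfrsf9 measured 10.01, 9.73, 9.49, 9.53 and 9.98 in NOD.Ln82-LCMV mice given gp33, against 8.3, 9.34, 9.37 and 9.2 in those given the control peptide. The gp33 arrays were all above the controls, but 1 control, replicate 1, lay far below the other 3. The difference was 0.7 log2 (SE 0.19, limma adjusted p = 0.572), and 0.44 without that array. Cd274 measured 10.74, 10.66, 10.61, 10.58 and 10.84 after gp33, against 10.25, 10.38, 10.39 and 10.38 after the control peptide. The groups did not overlap, at a difference of 0.34 log2 (SE 0.07, limma adjusted p = 0.219), or 0.3 without control replicate 1.

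Pdcd1 measured 10.62, 10.07, 9.9, 9.85 and 10.46 in NOD.Ln82-LCMV mice given gp33, against 9.42, 9.67, 9.91 and 9.74 in those given the control peptide. The gp33 arrays divided, with replicates 1, 2 and 5 above all controls and replicates 3 and 4 within the controls' range, and the difference was 0.49 log2 (SE 0.16, limma adjusted p = 0.689). Tnfrsf18 measured 10.1, 10.1, 9.88, 9.89 and 10.17 after gp33, against 9.61, 9.9, 9.83 and 9.9 after the control peptide, at a difference of 0.22 log2 (SE 0.09, limma adjusted p = 0.809). Replicates 1, 2 and 5 again lay above all controls, and replicates 3 and 4 did not.

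The other 6 genes differed by -0.12 to 0.1 log2 in NOD.Ln82-LCMV. Tnfrsf4 lay between 8.76 and 8.94 after gp33 and between 8.61 and 9.04 after the control peptide. Cd40lg lay between 6.87 and 6.95 after gp33 and between 6.83 and 6.91 after the control peptide, where group means of Cd40lg were under the level (6.92) that marks the dimmest 33.3% of genes. Ctla4 lay between 6.84 and 7.06 after gp33 and between 6.82 and 7.07 after the control peptide, where its mean of 6.9 was also under that level. Lag3 lay between 7.32 and 7.59 after gp33 and between 7.31 and 7.42 after the control peptide. For all 4 of these genes the ranges overlapped. Across the 10 genes, gp33 replicate 5 was the highest of its group for 5 and among the highest 2 for 7. When arrays were weighted by their spread, gp33 replicate 5 had the lowest weight of all arrays (0.282). Its best-correlated array was NOD.Ln82-LCMV control replicate 3.

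**Figure D2:**
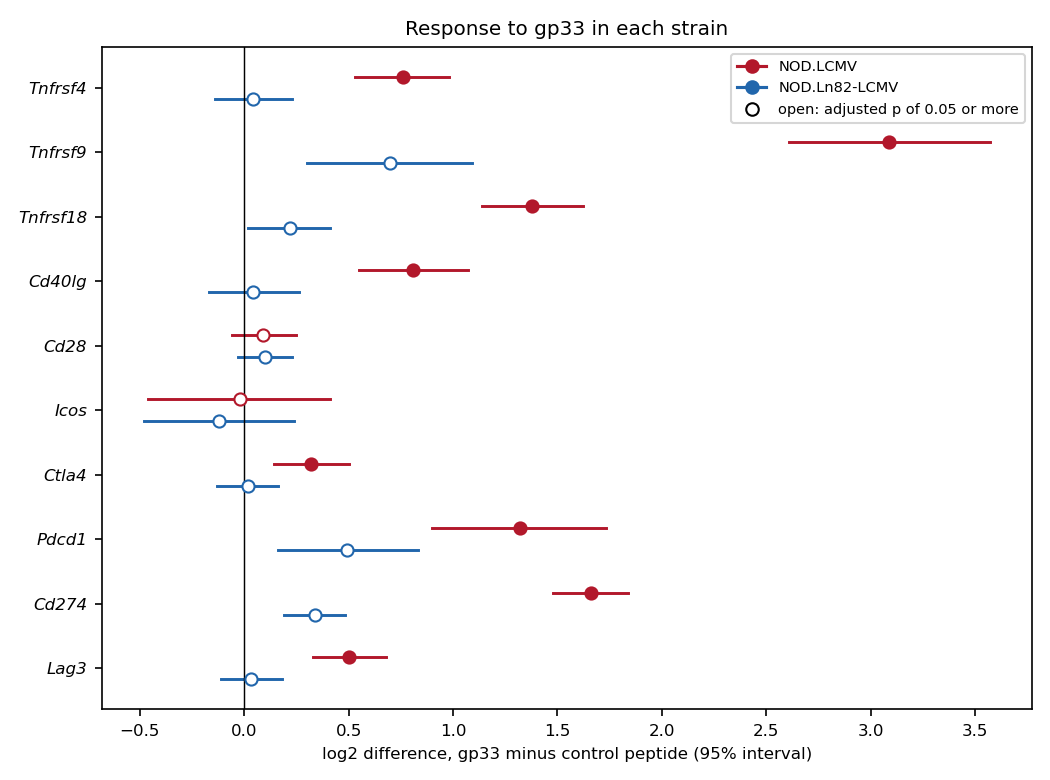
Difference between gp33 and the control peptide (log2, horizontal axis) for each gene in NOD.LCMV (red, upper) and NOD.Ln82-LCMV (blue, lower), with 95% intervals; filled points have a limma adjusted p under 0.05. The 8 filled points are all in NOD.LCMV and run from 0.32 for Ctla4 to 3.09 for Tnfrsf9, while NOD.Ln82-LCMV runs from -0.12 for Icos to 0.7 for Tnfrsf9.

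The responses themselves were then compared, as the log2 difference seen in NOD.LCMV minus the one seen in NOD.Ln82-LCMV. It was positive and called for 6 of the 10 genes and negative and called for none, against 4.46% of all genes called higher (890) and 4.26% lower (850), or 992 higher and 523 lower after median centring. The number called lower over all genes was 472 without NOD.LCMV gp33 replicate 2, 562 and 501 without NOD.LCMV control replicates 1 and 2, and 562 without NOD.Ln82-LCMV control replicate 3. Tnfrsf9 differed by 2.4 log2 (SE 0.29, limma adjusted p = 6.56e-05), being 3.09 in NOD.LCMV and 0.7 in NOD.Ln82-LCMV. Cd274 differed by 1.32 log2 (SE 0.11, limma adjusted p = 1.56e-06) and Tnfrsf18 by 1.17 log2 (SE 0.15, limma adjusted p = 8.34e-05). Cd40lg, Tnfrsf4 and Lag3, which differed little between peptides in NOD.Ln82-LCMV, had differences of 0.76 (SE 0.16), 0.71 (SE 0.14) and 0.47 (SE 0.1), with limma adjusted p-values of 0.00633, 0.00355 and 0.01.

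Pdcd1 and Ctla4 were called in NOD.LCMV and not in NOD.Ln82-LCMV, but the difference between their responses did not pass. For Pdcd1 it was 0.82 log2 (limma adjusted p = 0.056), within 95% bounds of 0.29 and 1.36. For Ctla4 it was 0.3 log2 (limma adjusted p = 0.104), within bounds of 0.07 and 0.54. Pdcd1 stood near the threshold, with limma adjusted p-values of 0.019 to 0.161 when single arrays were left out. It passed without NOD.LCMV gp33 replicate 3, without gp33 replicate 1 or 5 of NOD.Ln82-LCMV, and without NOD.Ln82-LCMV control replicate 1. Without both control arrays numbered 1 Pdcd1 did not pass (limma adjusted p = 0.0808). The responses of Cd28 and Icos differed by -0.01 log2 (interval -0.21 to 0.19) and 0.1 log2 (interval -0.47 to 0.66). The same 6 genes were called without both control arrays numbered 1, where 801 of all genes were called higher and 745 lower.

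Among mice given gp33, 8 of the 10 genes were higher in NOD.LCMV than in NOD.Ln82-LCMV and none was lower. Of all genes, 10.2% were called higher (2032) and 16.8% lower (3354), or 1642 and 4284 after median centring. Tnfrsf9 was 3.22-fold higher (2.39 to 4.33) and Cd274 2.01-fold higher (1.8 to 2.25), with limma adjusted p-values of 1.43e-05 and 1.36e-07. Cd40lg was 1.77-fold and Tnfrsf18 1.69-fold higher, and Tnfrsf4, Lag3 and Ctla4 were 1.35-fold, 1.34-fold and 1.33-fold higher. For these 7 genes and Icos each NOD.LCMV gp33 array exceeded each NOD.Ln82-LCMV gp33 array, as was the case for 10.6% of all genes. Pdcd1 was not called, and NOD.Ln82-LCMV gp33 replicates 1 and 5 lay within the NOD.LCMV range (difference 0.32 log2, interval -0.05 to 0.69, limma adjusted p = 0.22). In the same limma comparison, 5 of 7 granulocyte markers were higher, and 4 of 6 B-cell markers (6 without both control arrays numbered 1), 5 of 9 thymocyte markers, 4 of 7 dendritic cell markers, 4 of 8 thymic epithelium markers and 3 of 5 macrophage markers were lower. The mean of the B-cell list lay between 7.43 and 7.88 in NOD.LCMV mice given gp33 and between 8.23 and 8.77 in NOD.Ln82-LCMV mice given gp33, and that of the granulocyte list between 7.76 and 8.15 in NOD.LCMV mice given gp33 and between 6.83 and 7.25 in NOD.Ln82-LCMV mice given gp33. The thymic epithelium list lay between 9.88 and 10.09 in NOD.LCMV mice given gp33 and between 10.04 and 10.41 in NOD.Ln82-LCMV mice given gp33. The macrophage list lay between 9.13 and 9.34 in NOD.LCMV mice given gp33 and between 9.31 and 9.79 in NOD.Ln82-LCMV mice given gp33. Of 5 mature single-positive thymocyte markers 2 were lower, or 5 without NOD.LCMV gp33 replicate 1. Also lower were 2 of 4 natural killer cell, 2 of 5 fibroblast, 1 of 5 endothelium and 1 of 2 red cell markers, and none of these was higher. Without NOD.LCMV gp33 replicate 2, 2 of the 9 thymocyte markers and 1 of the fibroblast markers were lower. Their part in the strain differences of the 10 genes was not tested.

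Icos, which did not pass between peptides in either strain, separated by strain. It measured 9.15, 9.28 and 9.27 in NOD.LCMV mice given gp33, against 8.55, 8.51, 8.76, 8.78 and 8.46 in NOD.Ln82-LCMV mice given gp33. The groups did not overlap, and NOD.LCMV was higher by 0.62 log2 (SE 0.18), or 1.54-fold (1.17 to 2.02, limma adjusted p = 0.0188). The limma adjusted p was 0.0662 without NOD.LCMV gp33 replicate 2, and it was also above 0.05 without replicate 3, while the difference lay between 0.58 and 0.66 log2 over all single arrays left out. Among mice given the control peptide, Icos measured 9.25, 9.23 and 9.29 in NOD.LCMV, against 9.46, 8.23, 8.57 and 8.67 in NOD.Ln82-LCMV. There NOD.Ln82-LCMV replicate 1 was the highest of all 15 arrays and the other 3 were below every NOD.LCMV array. The difference of 0.52 log2 (SE 0.19) did not pass with all arrays (limma adjusted p = 0.103), and it was 0.77 log2 without NOD.Ln82-LCMV control replicate 1 (limma adjusted p = 0.000356).

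Among mice given the control peptide, 3 of the 10 genes were lower in NOD.LCMV than in NOD.Ln82-LCMV and none was called higher. Of all genes, 4.77% were called higher (952) and 5.54% lower (1105), or 384 and 2132 after median centring. The total of 2057 was 1310 and 1049 without NOD.LCMV control replicates 2 and 3 and 1188 without NOD.Ln82-LCMV control replicate 3, within a range of 1049 to 2721 over single arrays left out. Tnfrsf18 differed by -0.41 log2 (SE 0.1, limma adjusted p = 0.0219), with 9.41, 9.42 and 9.38 in NOD.LCMV and 9.61, 9.9, 9.83 and 9.9 in NOD.Ln82-LCMV. Cd274 differed by -0.31 log2 (SE 0.08, limma adjusted p = 0.0203), with every NOD.LCMV control array below every NOD.Ln82-LCMV control array. The nearest arrays were replicate 1 of each control group, at 10.24 in NOD.LCMV and 10.25 in NOD.Ln82-LCMV. Tnfrsf9 differed by -0.71 log2 (SE 0.21, limma adjusted p = 0.0433), and here NOD.Ln82-LCMV replicate 1, at 8.3, lay among the NOD.LCMV arrays. In a fit of only these 2 groups, Tnfrsf9 and Cd274 were not called (limma adjusted p = 0.121 and 0.0575), and Pdcd1 was called lower (limma adjusted p = 0.0268). The 3 calls also depended on single arrays: the count of called genes ran from 0 to 5 when each array was left out in turn, and it was 0 when either replicate 2 or replicate 3 of either control group was left out. It was 1 without replicate 1 of the NOD.LCMV controls, 1 without replicate 4 of the NOD.Ln82-LCMV controls and 5 without replicate 1 of the NOD.Ln82-LCMV controls.

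Without both control arrays numbered 1, 5 genes were called with the control peptide, Icos higher and Tnfrsf9, Cd274, Tnfrsf18 and Tnfrsf4 lower in NOD.LCMV. Over all genes, 1114 were then called higher and 1186 lower, and the total rose from 2057 to 2300. Tnfrsf9 then differed by -1.04 log2 (limma adjusted p = 0.000905), Cd274 by -0.44, Tnfrsf18 by -0.48 and Tnfrsf4 by -0.38 (limma adjusted p = 0.0469). Pdcd1 differed by -0.51 log2 with all arrays (interval -0.89 to -0.12, limma adjusted p = 0.0972), with 9.12, 9.25 and 9.17 in NOD.LCMV and 9.42, 9.67, 9.91 and 9.74 in NOD.Ln82-LCMV. For Tnfrsf4, Tnfrsf18, Pdcd1 and Cd274 every NOD.LCMV control array lay below all other arrays, as was the case for 1.53% of all genes. The margin was narrow for Cd274 (10.24 in NOD.LCMV control replicate 1, 10.25 in NOD.Ln82-LCMV control replicate 1). It was also narrow for Tnfrsf4, at 8.57 and 8.61 in the same arrays. For Tnfrsf9 the NOD.LCMV control group had the lowest mean and overlapped NOD.Ln82-LCMV control by 1 array.

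**Figure D3:**
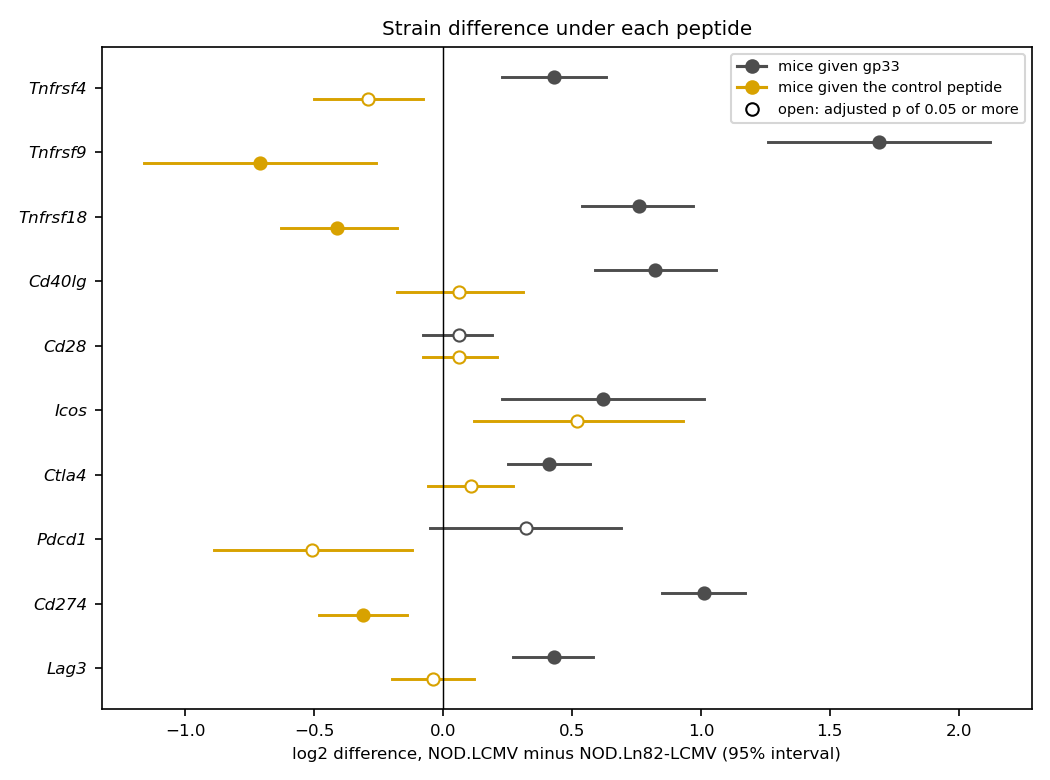
Difference between the strains (NOD.LCMV minus NOD.Ln82-LCMV, log2, horizontal axis) for each gene in mice given gp33 (grey, upper) and mice given the control peptide (yellow, lower), with 95% intervals; filled points have a limma adjusted p under 0.05. Tnfrsf9 stands at 1.69 with gp33 and -0.71 with the control peptide, and Icos is positive under both peptides, at 0.62 and 0.52.

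The means of the 4 groups had the same order for several genes, and the share of all genes with this order was not counted. For Tnfrsf4, Tnfrsf9, Tnfrsf18, Pdcd1, Cd274 and Lag3 the means fell from NOD.LCMV gp33 through NOD.Ln82-LCMV gp33 and NOD.Ln82-LCMV control to NOD.LCMV control. Some neighbouring groups overlapped for each of these genes except Cd274. The step between the NOD.Ln82-LCMV groups was small for Tnfrsf4 (0.04 log2, SE 0.09) and Lag3 (0.03 log2, SE 0.07). Between the control groups Lag3 differed by -0.04 log2 (SE 0.08, NOD.LCMV minus NOD.Ln82-LCMV). Cd274 was the only one of the 10 whose neighbouring groups in order of level never overlapped, a pattern of 0.12% of all genes. Its control groups were only just apart, with replicate 1 at 10.24 in NOD.LCMV and at 10.25 in NOD.Ln82-LCMV. Both arrays are those that did not lie fully with their own strain. For Cd40lg and Ctla4 the order was NOD.LCMV gp33, NOD.LCMV control, NOD.Ln82-LCMV gp33 and NOD.Ln82-LCMV control, and neighbours among the last 3 groups overlapped. For Cd28 every neighbouring pair overlapped.

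Across the 15 arrays the genes most like these 10 in level differed from gene to gene. As a description over arrays that share strain and peptide, Tnfrsf9 was most like Cobll1 and Tagap (Pearson r = 0.988 each), Tnfrsf18 like Cobll1 (0.987) and Dusp5 (0.984), and Cd274 like Gadd45b (0.986) and Nr4a3 (0.983). Cd40lg was most like Fosl1 (0.968), Pdcd1 like Rilpl2 (0.964) and Lag3 like Sh2b3 (0.964). The closest genes were less alike for Icos (Vav3, 0.933), Tnfrsf4 (Plscr1, 0.93), Ctla4 (Nabp1, 0.926) and Cd28 (Ephx1, 0.861).

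Neighbours on the chromosome were compared for the same NOD.LCMV response to gp33, from the gene order of GRCm38.p6. Cd274 lies on chromosome 19 beside Pdcd1lg2, which encodes the second PD-1 ligand and differed by 1.2 log2 (SE 0.11, limma adjusted p = 8.63e-07), and Plgrkt, a plasminogen receptor, which differed by 0.48 log2 (SE 0.07, limma adjusted p = 0.000138). Tnfrsf4 and Tnfrsf18 lie on chromosome 4 with the predicted gene Gm16008 measured between them, which differed by 0.31 log2 (SE 0.07, limma adjusted p = 0.00322), while the flanking genes Sdf4 and Ttll10 differed by 0.04 and -0.14 and were not called. Tnfrsf9 on the same chromosome lies between Park7 and Per3, which differed by 0.02 and 0.01 log2 and were not called. Lag3 on chromosome 6 lies beside Cd4, the class II co-receptor, which differed by -0.36 log2 (SE 0.11, limma adjusted p = 0.0321). Arhgef6, beside Cd40lg on chromosome X, differed by -0.54 log2 (SE 0.09, limma adjusted p = 0.000365), and Raph1, an actin regulator beside Cd28, by 0.35 log2 (SE 0.1, limma adjusted p = 0.0225). The remaining neighbours (Vgll1, Pard3b, Neu4, Fam174a and Ptms) differed by -0.14 to 0.04 log2 and were not called.

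The ligands and counter-receptors of the 10 proteins were followed as a list of 9 genes chosen with earlier results known. In NOD.LCMV, 7 of 9 were called higher after gp33 and none lower, against 7.29% and 12.5% of all genes, with a list median of 0.72 log2. Cd40, the receptor of Cd40lg on B cells and dendritic cells, measured 10.11 to 10.62 after gp33 and 8.63 to 8.92 after the control peptide, a difference of 1.59 log2 (SE 0.12, limma adjusted p = 2.27e-07). Cd80, a ligand of CD28 and CTLA-4, differed by 1.29 log2 (SE 0.09), and Tnfsf9, the ligand of CD137, by 0.91 log2 (SE 0.06). Cd86 and Icosl, named after their values were seen as ligands of CD28 and ICOS, differed by 0.72 (SE 0.07) and 0.52 (SE 0.1). Tnfsf4, the OX40 ligand, and Fgl1, a LAG-3 ligand, also named after their values were seen, were not called, at 0.21 and 0 log2. In NOD.Ln82-LCMV none of the 9 was called by limma, and 3 passed an unadjusted p under 0.05, against 5.97% of all genes. The difference between the responses was called for 6 of the 9 (7 without both control arrays numbered 1), all higher in NOD.LCMV, against 4.46% of all genes, among them Cd40 at 1.39 log2 (SE 0.16) and Tnfsf9 at 0.93 log2 (SE 0.08).

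Other costimulatory and inhibitory genes were counted in further lists. In NOD.LCMV after gp33, 7.29% of all genes were called higher and 12.5% lower, as a reference for these counts. Of 11 other TNF-family genes, 7 were called higher and none lower after gp33 in NOD.LCMV, led in size by Tnfsf14 (1.98 log2, SE 0.13), the ligand LIGHT, and Tnfrsf1b (1.05, SE 0.09), a TNF receptor. Of 10 other immunoglobulin-family costimulators, 3 were called higher and 3 lower, with Crtam at 1.98 (SE 0.14), Slamf1 at 1.25 (SE 0.2) and Cd6 at 0.68 (SE 0.08), against Slamf6 at -0.39, Ly9 at -0.21 and Cd48 at -0.2. Without NOD.Ln82-LCMV control replicate 1, 5 of these costimulators were called lower. Of 18 other inhibitory genes, 7 were called higher and 1 lower, among them Btla (1.06, SE 0.09), Cd200 (0.96, SE 0.08), Cd5 (0.6, SE 0.1) and Pvr (0.57, SE 0.06), and Cd200r1, the receptor of CD200, at -0.4. The number called lower was 2 without NOD.LCMV gp33 replicate 1 or 3, and also without NOD.Ln82-LCMV control replicate 1 or 4. Of 13 measured signal proteins under the receptors, 2 were called higher and 3 lower: the adaptor Traf1 at 0.86 (SE 0.09) and the phosphatase Ptpn6 at 0.29, against Grap2 at -0.71, Traf5 at -0.5 and Pik3r1 at -0.29. None of these genes was called in NOD.Ln82-LCMV.

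Genes of regulatory T cells, which carry several of the 10 receptors, were counted beside them. Of 9, 5 were called higher and none lower after gp33 in NOD.LCMV, against 7.29% and 12.5% of all genes. They included Il2ra (1.67 log2, SE 0.16) and Il2rb (0.75, SE 0.12), the interleukin-2 receptor chains that activated T cells also express. Also called were Ikzf2, with a mean of 12.16 after gp33 and 11.42 after the control peptide, and Lrrc32, at 8.45 and 7.75. Ikzf4, named to complete the 5, had means of 8.17 and 7.84. Foxp3, the defining factor of these cells, named after its values were seen, measured 7.86 to 8.11 after gp33 and 7.78 to 7.92 after the control peptide and was not called (0.1 log2, SE 0.07, limma adjusted p = 0.372). The part of these cells in the differences of the 10 genes was not tested.

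**Figure D4:**
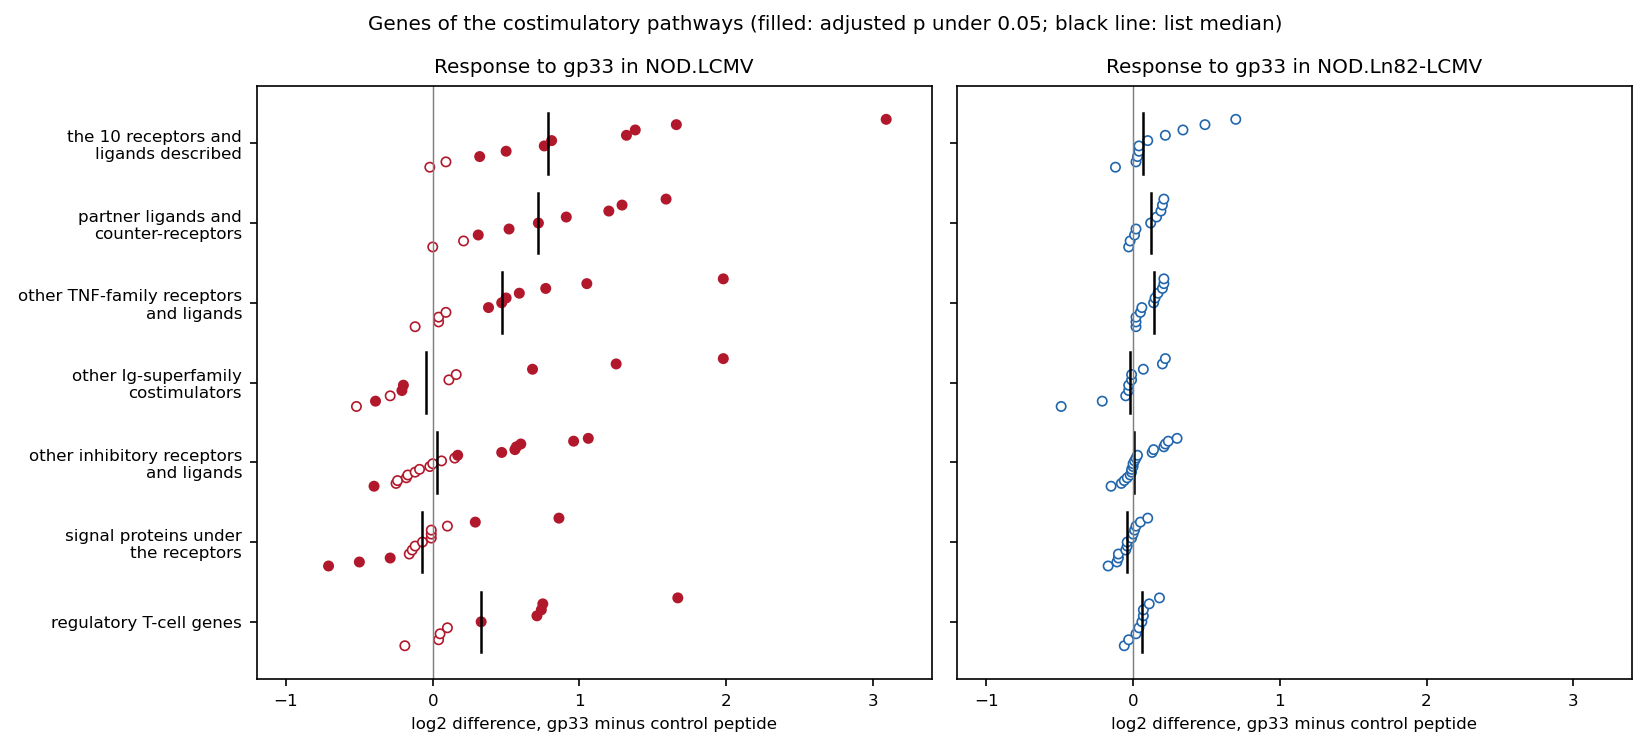
Difference between gp33 and the control peptide (log2, horizontal axis) of the 10 genes and of 6 lists of related genes in NOD.LCMV (left) and NOD.Ln82-LCMV (right). Each point is a gene, filled points have a limma adjusted p under 0.05, and black lines are list medians, which in NOD.LCMV are 0.78 for the 10 genes and 0.72 for their partner ligands.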

How the data were processed

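Whole-thymus RNA of 15 mice was measured on the Affymetrix platform Mouse Gene 1.0 ST, with 1 array for each mouse. The authors deposited log2 intensities for 35556 probe sets; RMA and Affymetrix Expression Console 1.1 are the tools named, per the submitters' processing notes. RMA corrects background, quantile-normalizes arrays and summarises the probes of a set. No further normalization was applied. Of the probe sets, 21789 had 1 gene symbol in the platform annotation, 1621 had several and 12146 had none. Genes with several probe sets (999) were read at the one with the highest mean, which left 19938 genes. The number of arrays limits the precision.

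One model over the 15 arrays was fitted with limma 3.58.1 under R 4.3.3, giving each combination of strain and peptide its own mean. Variances were moderated by eBayes, with 11 degrees of freedom from the residuals and 14.9 in total. Tests were two-sided, adjusted by Benjamini-Hochberg over all genes, and the model was tested on simulated data. The members, lists and tests were chosen with earlier results of these data known. Named genes were the 10 members, up to 4 called genes of each list per comparison and direction with the smallest adjusted p, the genes most correlated with each member, and chromosomal neighbours; exceptions are marked. Promoters came from RefSeq. Alternatives were a replicate block, a 1.5-fold limit, array weights, a variance trend, a fit to only the groups compared, other probe set rules, a filter on the dimmest 33.3% of genes, median centring, quantile normalization and leaving out each array in turn; leaving out both control arrays numbered 1 was added after seeing the data.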

Additional observations from a re-analysis of the deposited data

Results flagged for a closer look

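In 20 sets of arrays of 1 gene in 1 NOD.Ln82-LCMV group, 5 held an array that stood apart from its group by Dixon's criterion. Chance gives about 1 in 20 for independent sets, but these sets share arrays, so the count was not tested against chance. NOD.Ln82-LCMV control replicate 1 stood apart in 4 of the 5: it was the lowest of its group for Tnfrsf9 (8.3), Cd274 (10.25) and Lag3 (7.31) and the highest for Cd28 (12.26). The criterion is relative to the spread of the group, and the next lowest arrays were at 10.38 for Cd274 and 7.41 for Lag3. The fifth was NOD.Ln82-LCMV control replicate 4, the highest of its group for Ctla4 (7.07). NOD.Ln82-LCMV control replicate 1 is also the array that lay between the strains, at a median position of 0.38.

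The response to gp33 differed between the strains, by the test of the difference in limma, for Tnfrsf9 (2.4 log2), Cd274 (1.32), Tnfrsf18 (1.17), Cd40lg (0.76), Tnfrsf4 (0.71) and Lag3 (0.47), each larger in NOD.LCMV.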

How the results depend on the processing

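Leaving out each array in turn gave 7 to 8 called genes of the 10 for the NOD.LCMV response to gp33, 0 to 0 for the NOD.Ln82-LCMV response, 6 to 7 for the difference between the responses, 7 to 8 for the strain difference with gp33 and 0 to 5 for the strain difference with the control peptide. That last count, 3 in the values reported, was 5 after median centring, 6 with array weights (1 higher, 5 lower), 1 with a limit of 1.5-fold and 5 without both control arrays numbered 1, an alternative added after seeing the data. Over all genes, the strain difference with the control peptide had 2516 called genes after median centring and 2300 without both control arrays, against 2057. The strain difference with gp33 had 5 called genes of the 10 with the limit of 1.5-fold. Under the alternatives run, no other count of called members moved by over 1.5 times. Pdcd1 passed for the difference between the responses after median centring (adjusted p = 0.0482), without the dimmest genes (0.041), with a variance trend (0.0455) and with array weights (0.00917). Over all genes, the limit of 1.5-fold left 591, 0, 456, 703 and 110 called genes in the 5 comparisons in the order of the report; array weights gave 3175 for the difference between the responses and 4350 for the strain difference with the control peptide, against 1740 and 2057; 4 genes were called in NOD.Ln82-LCMV with a variance trend and with array weights, and 0 with only the groups compared, against 1. Because each of the 10 genes has 1 probe set, the other probe set rules left their log2 differences as reported.

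Signs turned only for differences that were not called. Icos in NOD.LCMV was 0.01 after quantile normalization and after median centring, and -0.05 to 0.02 over single arrays left out. Icos in NOD.Ln82-LCMV was 0 with array weights, 0.12 without both control arrays and -0.29 to 0.12 over single arrays, and the difference between its responses was -0.04, -0.15 and -0.15 to 0.26. For Cd28 the difference between the responses was 0.01 after quantile normalization, 0.02 after median centring and -0.08 to 0.07 over single arrays; its strain difference was 0 with the control peptide after median centring, and -0.02 to 0.13 with gp33 over single arrays. Cd40lg between strains with the control peptide was -0.01 after quantile normalization and median centring, 0 without both control arrays and -0.01 to 0.14 over single arrays. In NOD.Ln82-LCMV, Tnfrsf4 was -0.02 without both control arrays and -0.02 to 0.13 over single arrays, Ctla4 -0.02 to 0.07, and Lag3 0 with array weights and -0.01 to 0.06 over single arrays. The causes were not tested.

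In the fit of NOD.Ln82-LCMV with a replicate block, 0 of the 10 genes and 0 of all genes were called, and Lag3 was -0.01. The arrays gave no clear sign that the shared numbers 1 to 4 pair these mice, although these correlations cannot exclude a pairing. Deviations of same-numbered arrays correlated at 0.12, 0.01, -0.05 and -0.23, and 1 of 4 control arrays was most like its own number.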
